A study of Homo sapiens with 2 samples.

Results

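The genes described here are the amino acid transporter families in human corneal epithelial cells (HCECs) given a miR-184 mimic. They were chosen by gene symbol, among array features that carried exactly 1 symbol. A gene was taken when that symbol, as updated through RefSeq, was SLC1A, SLC3A, SLC6A, SLC7A, SLC15A, SLC36A, SLC38A or SLC43A followed by a number. Pseudogenes and antisense transcripts were left out. The rule gave 64 genes in 8 families among the 22368 genes with a named feature. The families were proposed with the differences between these arrays already known, so their counts and medians are given as a description. All 64 genes had a value in both arrays, each came from a single feature, and none was removed for a low signal.

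HCECs are corneal epithelial cells immortalized with SV40, an established line of cells grown in DMEM/F12 medium with fetal bovine serum, insulin and epidermal growth factor. One array measured total RNA of HCECs 48 h after transfection with 50 nM miR-184 mimic, and 1 array measured HCECs transfected with a negative control (NC). Both received their RNA with Lipofectamine RNAiMAX. Each condition had 1 array, so neither a replicate spread nor a *P*-value could be computed, and what miR-184 did cannot be told apart from other differences of the 2 cultures. A lower signal may come from less RNA per cell or from fewer cells of a kind that holds the RNA, and the array of a bulk culture cannot separate these.

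The carriers of these families move amino acids and small peptides across the plasma membrane and the membranes of organelles. The SLC7 light chains exchange one amino acid for another and reach the cell surface only when bound to an SLC3 heavy chain, whereas SLC1, SLC6 and SLC38 carriers mostly use the sodium gradient to load the cell. The SLC15 and SLC36 carriers are driven by protons. The corneal epithelium has no blood vessels of its own and takes up amino acids through such carriers, and leucine, arginine and glutamine inside the cell feed protein synthesis and the growth kinase complex mTORC1.

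The mimic supplies the mature miR-184, whose seed, the bases 2 to 8 that pair with target mRNAs, is shown because it defines which mRNAs the treatment could address directly. The sequence is that of RefSeq (GRCh38.p14, chr15:79209840-79209861, plus strand), 5′ to 3′, with the seed in capitals. Of 2545 mature human miRNAs in that table, 1 carries this seed, miR-184 itself. No 3′-UTR sequence was used here, so sites for the seed in the transporter mRNAs were not analysed.
hsa-miR-184: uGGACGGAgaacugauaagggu

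The values are log2 signals as deposited, and differences were taken on that scale as miR-184 cells minus NC cells. A gene is called lower or higher when its signal differed at least 1.5 times. The targets of miR-184 that the study worked on were all lower: *LASP1* had 8.21 in miR-184 cells and 11.04 in NC cells, *CARM1* 6.20 in miR-184 cells and 8.41 in NC cells, and *CDC25A* 5.44 in miR-184 cells and 6.34 in NC cells. The study had picked these targets among genes that were lower in its microarray data, so their lower signals here are no separate check. Of 16 epithelial markers measured, 9 lay above the median signal of all genes (4.24, the mean of both arrays). Of these, *KRT5* (0.88) and *CDH1* (0.75) were at least 1.5 times higher in miR-184 cells, *KRT19* (-0.92) and *KLF5* (-0.71) were at least 1.5 times lower, and *EPCAM* (0.46), *KRT18* (0.28), *KRT8* (0.05), *CLU* (-0.29) and *EHF* (-0.35) lay between. The part of these shifts in the transporter differences was not tested. The markers that define corneal epithelium, *PAX6*, *KRT3*, *KRT12* and *ALDH3A1*, lay below it in both arrays, as did *KRT14*, *KRT15* and *KLF4*. None of 6 keratocyte or fibroblast markers and none of 3 melanocyte markers reached the median signal. Of 4 immune markers 1 did (*CD68*), and of 4 vascular endothelial markers 1 did (*CDH5*, 6.77 in miR-184 cells and 8.19 in NC cells).

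Of the 64 transporter genes, 8 (12.5%) were lower in miR-184 cells, against 4.17% of all 22368 genes, and 1 (1.56%) was higher, against 3.74% of all genes. The other 55 lay between the thresholds. The median difference of the 64 genes was -0.02, against 0.04 for all genes and 0.02 for 261 other SLC genes, of which 13 were lower and 5 higher. Of the 64 genes, 47 differed by less than 0.2 on the log2 scale, but 32 of these were among the 35 genes whose signal did not reach the median. A change of at least 2 times was seen in 5 genes that were lower and in 1 that was higher. All 9 genes past the threshold of 1.5 times belonged to the 29 transporter genes whose mean signal was at or above the median of all genes. Among those 29, 8 (27.6%) were lower and 1 (3.45%) was higher, whereas 7.77% of all genes with such a signal were lower and 6.25% higher. Their median difference was -0.17, against -0.02 for all genes and -0.04 for 135 other SLC genes with such a signal, of which 13 were lower and 5 higher. Of the 29, 21 were below 0, 7 above and 1 equal, and 15 differed by less than 0.2. *SLC7A5*, *SLC15A2* and *SLC6A9* had been picked from these same arrays as lower predicted targets of miR-184. Without them, 5 of 61 genes were lower and 1 was higher.

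**Figure D1:**
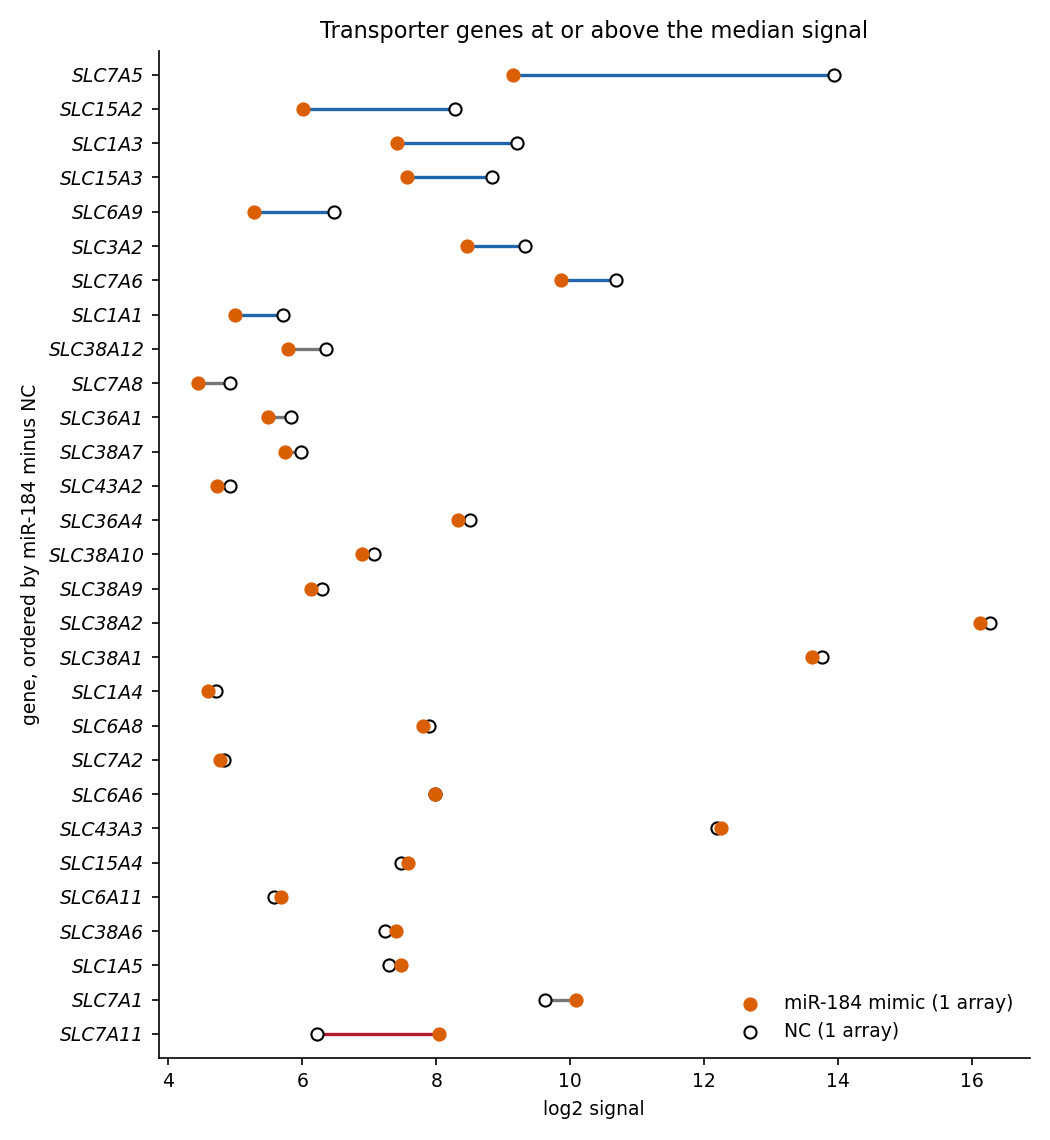
Log2 signal (horizontal axis) of the 29 transporter genes at or above the median signal, ordered by their difference. Filled points are the miR-184 array and open points the NC array, and the joining line is blue where the gene was at least 1.5 times lower, red where it was at least 1.5 times higher and grey otherwise. *SLC7A5* spans 9.15 in miR-184 cells and 13.94 in NC cells, while *SLC38A2* and *SLC38A1* show almost no gap.

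The widest gap was in the heterodimeric transporters. *SLC7A5* encodes LAT1, the light chain that exchanges leucine and other large neutral amino acids for intracellular glutamine. Its log2 signal was 9.15 in miR-184 cells and 13.94 in NC cells, a difference of -4.79 (27.7 times lower). No other gene of the 22368 had a lower difference. *SLC3A2* encodes CD98hc, the heavy chain that LAT1 and most other light chains need to reach the surface, and it had 8.45 in miR-184 cells and 9.32 in NC cells (-0.87, 1.83 times lower). Both partners of LAT1 were thus lower in the miR-184 array, but by unequal amounts: the difference of the light chain minus that of the heavy chain was -3.92. Of 1118 genes with the mean signal closest to its own, none had a lower difference than *SLC7A5*, and 58 had a lower one than *SLC3A2*.

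The other light chains moved in both directions. *SLC7A6*, encoding y+LAT2, which exchanges arginine for neutral amino acids, had 9.87 in miR-184 cells and 10.68 in NC cells (-0.81, 1.76 times lower). *SLC7A8*, encoding the neutral amino acid exchanger LAT2, had 4.45 in miR-184 cells and 4.92 in NC cells (-0.48), short of the threshold. *SLC7A11* encodes xCT, the light chain that brings in cystine for glutathione synthesis in exchange for glutamate. It had 8.04 in miR-184 cells and 6.22 in NC cells, a difference of 1.82 (3.53 times higher), and it was the only one of the 64 genes that was higher. Of the 1118 genes of most similar signal, 1 had a higher difference, and of all 22368 genes 23 did. The light chains of CD98hc thus ran from the lowest to the highest difference in the 8 families, with the heavy chain between them. The remaining 4 light chains, *SLC7A7*, *SLC7A9*, *SLC7A10* and *SLC7A13*, had signals below the median and were not past the threshold, and neither was *SLC3A1*, encoding rBAT, the heavy chain of the renal cystine transporter, with 3.12 in miR-184 cells and 3.11 in NC cells.

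Features of related sequence bear on how *SLC7A5* can be read. The pseudogene *SLC7A5P1* had its own feature, with 4.75 in miR-184 cells and 6.21 in NC cells (-1.47). A feature assigned jointly to *SLC7A5P2*, *SMG1P3* and *SLC7A5P1* had 14.15 in miR-184 cells and 13.90 in NC cells (0.25). The pseudogenes resemble *SLC7A5*, so signal may be shared between these features, and the size of such sharing was not tested. *SLC7A6OS*, which lies opposite *SLC7A6*, had 8.04 in miR-184 cells and 8.22 in NC cells (-0.18), and *SLC7A11-AS1*, the antisense transcript of *SLC7A11*, was below the median signal with 3.12 in miR-184 cells and 3.20 in NC cells.

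The cationic amino acid transporters of the SLC7 family work without a heavy chain. *SLC7A1*, encoding CAT1, the general arginine and lysine importer, had 10.09 in miR-184 cells and 9.62 in NC cells (0.46, 1.38 times higher), which did not pass the threshold but was the next highest difference of the 64 genes after *SLC7A11*. *SLC7A2*, encoding CAT2, had 4.76 in miR-184 cells and 4.83 in NC cells. *SLC7A3*, *SLC7A4* and *SLC7A14* were below the median signal. In the plot of differences by family, SLC7A has the widest spread, and its median (-0.04) lies near 0.

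**Figure D2:**
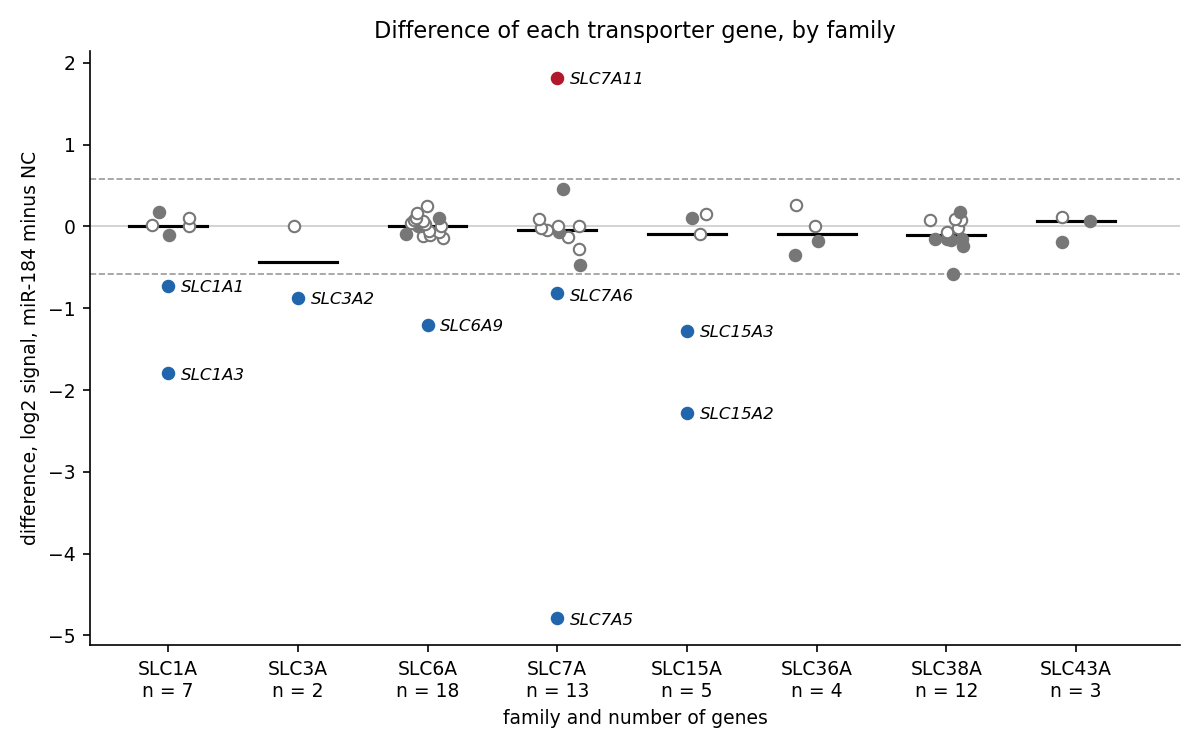
Difference of the log2 signal (miR-184 minus NC, vertical axis) of each of the 64 transporter genes in its family (horizontal axis). Filled points have a mean signal at or above the median of all genes and open points a lower one, black bars are family medians, dashed lines mark 1.5 times, blue is lower and red higher. *SLC7A5* (-4.79) and *SLC7A11* (1.82) lie at the 2 ends of the same family, and no gene of SLC36A, SLC38A or SLC43A passed the threshold.

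Of the 5 glutamate transporters of the SLC1 family, the 2 with a signal at or above the median were both lower. Of all genes with such a signal, 7.77% were lower. *SLC1A3*, encoding EAAT1, known in the brain as the glial carrier that clears glutamate from synapses, had 7.42 in miR-184 cells and 9.21 in NC cells (-1.80, 3.47 times lower). Only 10 of the 1118 genes of most similar signal had a lower difference. *SLC1A1*, encoding EAAT3, which carries glutamate, aspartate and cysteine, had 4.99 in miR-184 cells and 5.71 in NC cells (-0.72, 1.65 times lower), and 30 of its 1118 genes had a lower one. The neutral amino acid exchangers of the same family did not share this. *SLC1A5*, encoding ASCT2, the glutamine carrier, had 7.47 in miR-184 cells and 7.29 in NC cells (0.18). *SLC1A4*, encoding ASCT1, which carries serine, alanine and cysteine, had 4.60 in miR-184 cells and 4.70 in NC cells (-0.11). Within the SLC1 family the lower genes were thus acidic amino acid carriers, and the neutral exchangers were within 0.2 of 0. The other 3 glutamate transporter genes, *SLC1A2*, *SLC1A6* and *SLC1A7*, lay below the median signal.

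The peptide transporters of the SLC15 family had 2 lower genes of 5 (40%), against 4.17% of all genes. The lower genes include *SLC15A2*, which had been picked from these same arrays. *SLC15A2* encodes PEPT2, the high-affinity carrier that takes up di- and tripeptides with protons. It had 6.01 in miR-184 cells and 8.29 in NC cells (-2.28, 4.85 times lower), and 2 of the 1118 genes of most similar signal had a lower difference. *SLC15A3* encodes PHT2, an endolysosomal carrier of histidine and peptides that is known for its role in immune signaling. It had 7.56 in miR-184 cells and 8.84 in NC cells (-1.28, 2.42 times lower), with 23 of its 1118 genes lower. *SLC15A4*, which encodes the related endolysosomal carrier PHT1, had 7.58 in miR-184 cells and 7.47 in NC cells (0.10). The intestinal peptide transporter gene *SLC15A1* and *SLC15A5* lay below the median signal.

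The SLC6 family, with 18 genes the largest, contained 1 lower gene (5.56%), against 4.17% of all genes. That gene had been picked from these same arrays. *SLC6A9* encodes GlyT1, which takes up glycine with sodium and chloride, and it had 5.27 in miR-184 cells and 6.48 in NC cells (-1.20, 2.30 times lower). Of the 1118 genes of most similar signal, 12 had a lower difference. The other 9 amino acid carriers of this family, among them the broad carrier gene *SLC6A14* and the proline carrier gene *SLC6A7*, lay below the median signal. Carriers of osmolytes, creatine and GABA did not differ by the threshold. The taurine transporter gene *SLC6A6* had 7.98 in both arrays, the creatine transporter gene *SLC6A8* 7.81 in miR-184 cells and 7.90 in NC cells, and *SLC6A11*, encoding the GABA transporter GAT3, 5.68 in miR-184 cells and 5.58 in NC cells.

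None of the 12 SLC38 genes passed the threshold, although 6 of the 7 with a signal at or above the median were below 0, of which *SLC38A2* was above 0 (0.11) after quantile normalization. *SLC38A2*, encoding SNAT2, a sodium-coupled importer of alanine, serine and glutamine that is induced when amino acids are scarce, had 16.12 in miR-184 cells and 16.28 in NC cells (-0.15). *SLC38A1*, encoding the glutamine importer SNAT1, had 13.61 in miR-184 cells and 13.76 in NC cells (-0.15). These are neighbours on chromosome 12, and their differences in the deposited values were equal to the second decimal. After quantile normalization they were 0.11 for *SLC38A2* and -0.03 for *SLC38A1*. *SLC38A4*, the other neighbour of *SLC38A2*, had a difference of 0.08 at a signal below the median. The neighbours *SLC36A2* (0.26) and *SLC36A1* (-0.34) lay on opposite sides of 0. *SLC38A9*, encoding the lysosomal arginine sensor of mTORC1, had 6.14 in miR-184 cells and 6.29 in NC cells (-0.16). *SLC38A7*, encoding a lysosomal glutamine carrier, had 5.75 in miR-184 cells and 5.99 in NC cells (-0.24), and *SLC38A10* had 6.90 in miR-184 cells and 7.07 in NC cells (-0.17). *SLC38A6* was on the other side of 0, with 7.40 in miR-184 cells and 7.23 in NC cells (0.17). *SLC38A12*, formerly *TMEM104*, had 5.78 in miR-184 cells and 6.36 in NC cells (-0.58, 1.49 times lower), the value closest to the threshold from outside. The closest from inside was *SLC1A1* (-0.72).

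The proton-coupled SLC36 carriers and the SLC43 facilitators had no gene past the threshold. *SLC36A1*, encoding PAT1, which exports small neutral amino acids from lysosomes, had 5.48 in miR-184 cells and 5.83 in NC cells (-0.34). *SLC36A4*, encoding PAT4, had 8.32 in miR-184 cells and 8.51 in NC cells (-0.18). *SLC43A2*, encoding LAT4, a facilitator of large neutral amino acids such as those LAT1 carries, had 4.72 in miR-184 cells and 4.91 in NC cells (-0.19). *SLC43A3*, whose product carries purine bases, had 12.26 in miR-184 cells and 12.20 in NC cells (0.06). *SLC43A1*, encoding LAT3, another facilitator of large neutral amino acids, was below the median signal, with 3.85 in miR-184 cells and 3.74 in NC cells (0.12). Beside the -4.79 of LAT1, the carriers LAT2, LAT3 and LAT4 thus had differences of -0.48, 0.12 and -0.19. These values do not stand at like signals. The mean log2 signal was 11.54 for LAT1, against 4.69, 3.79 and 4.82 for LAT2, LAT3 and LAT4. Of the 1118 genes of most similar signal, 70 had a lower difference than LAT2, 695 than LAT3 and 270 than LAT4.

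**Figure D3:**
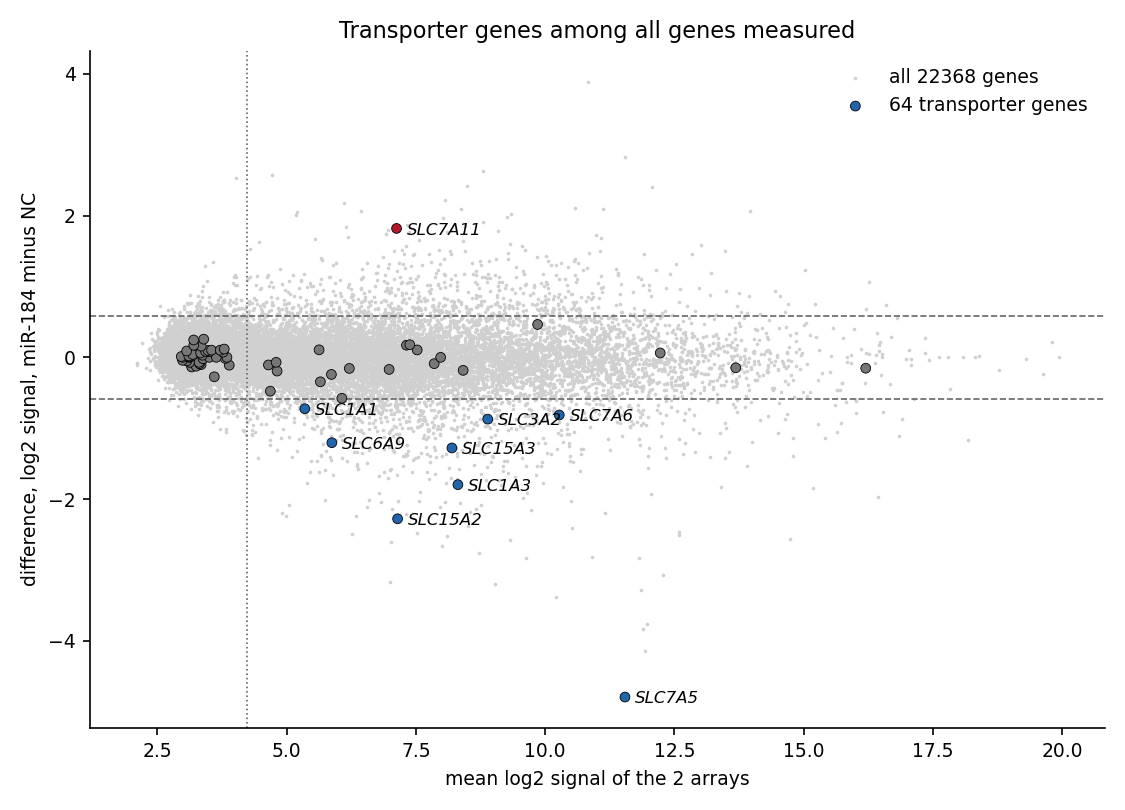
Mean log2 signal of the 2 arrays (horizontal axis) and difference (miR-184 minus NC, vertical axis) of all 22368 genes (light grey) and of the 64 transporter genes (outlined points, blue lower, red higher, dark grey between). Dashed lines mark 1.5 times and the dotted line the median signal of 4.24. *SLC7A5* is the lowest point of all genes, and the transporter genes left of the dotted line lie close to 0.

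The 35 transporter genes below the median signal had between 2.97 and 3.85 in miR-184 cells and between 2.96 and 3.95 in NC cells. Their differences ran from -0.27 (*SLC7A7*) to 0.26 (*SLC36A2*), none passed the threshold, and 5 had exactly equal values in both arrays. At such signals the arrays can miss a change in the RNA, and the counts for these genes do not show that they were unaffected. Among all genes below the median signal, 64 of 11184 were lower and 138 higher. Exactly equal values also occurred in *SLC6A6* and in 4.13% of all genes, which limits what a difference of 0 says.

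The genes that act with these carriers were described by 6 lists, which were drawn up with earlier results of these arrays known. Other amino acid carriers, outside the 8 families, had 2 lower genes of 19 (10.5%) and none higher, against 4.17% and 3.74% of all genes. Of the 19, 13 had a signal at or above the median, where 7.77% of all genes were lower and 6.25% higher. Both lower genes were among the 13. The lower genes were *SLC17A5*, encoding the lysosomal carrier sialin (6.87 in miR-184 cells and 7.53 in NC cells, -0.66), and *SLC25A22*, encoding a mitochondrial glutamate carrier (5.00 in miR-184 cells and 5.64 in NC cells, -0.64). The mitochondrial serine carrier gene *SFXN3* was close to the threshold on the other side, with 7.29 in miR-184 cells and 6.71 in NC cells (0.58).

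Several of the transporter genes are known targets of ATF4, the transcription factor of the amino acid response. Of 8 such members, *SLC7A5*, *SLC6A9* and *SLC3A2* were lower, *SLC7A11* was higher, and *SLC38A2*, *SLC1A4*, *SLC1A5* and *SLC7A1* lay between. All 8 had a signal at or above the median, where 7.77% of all genes were lower and 6.25% higher, and the list holds *SLC7A5* and *SLC6A9*, which had been picked from these arrays. Outside the families, 20 genes of the same response had a median of 0.04, and 1 was past the threshold: *PSAT1*, an enzyme gene of serine synthesis, with 8.42 in miR-184 cells and 7.83 in NC cells (0.60, 1.51 times higher). That is 5% of the 20, of which 18 had a signal at or above the median, against 6.25% of all genes with such a signal. *ATF4* itself had 10.77 in miR-184 cells and 10.78 in NC cells (-0.01). The asparagine synthetase gene *ASNS*, the textbook gene of this response, had 6.10 in miR-184 cells and 5.62 in NC cells (0.48). Of the 20 genes, 9 were below 0 and 11 above. The lowest differences were those of *DDIT3* (-0.52, at a signal below the median), *EIF2AK3* (-0.49) and *ATF3* (-0.40). The kinase gene *EIF2AK4*, whose product GCN2 senses uncharged tRNA, had 8.13 in miR-184 cells and 8.09 in NC cells.

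Of 30 genes of amino acid sensing by mTORC1, 4 (13.3%) were lower and none higher, with a median of -0.02, and none of the 4 was 2 times lower. Of these 30 genes 26 had a signal at or above the median, and 7.77% of all genes with such a signal were lower. *MLST8*, encoding a subunit of the mTOR complexes, had 5.78 in miR-184 cells and 6.59 in NC cells (-0.81). *TSC2* had 5.78 in miR-184 cells and 6.53 in NC cells (-0.75) and *TSC1* had 8.50 in miR-184 cells and 9.20 in NC cells (-0.70). Their products form the complex that inhibits RHEB, the activator of mTORC1. *NPRL3*, a subunit gene of the inhibitory GATOR1 complex, had 5.38 in miR-184 cells and 6.06 in NC cells (-0.67). The lower genes of this list thus include 3 that encode inhibitors and 1 that encodes a part of the kinase complex. *MTOR* had 10.37 in miR-184 cells and 10.14 in NC cells (0.23).

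The substrates of xCT and the glutamate carriers meet in glutathione and glutamate metabolism. Of 13 genes of this list, 1 (7.69%) was lower and 1 (7.69%) higher. Of the 13, 12 had a signal at or above the median, where 7.77% of all genes were lower and 6.25% higher. *GCLM*, encoding the regulatory subunit of glutamate-cysteine ligase, which starts glutathione synthesis, had 9.34 in miR-184 cells and 8.20 in NC cells (1.14, 2.20 times higher). The gene of the catalytic subunit, *GCLC*, had 6.07 in both arrays. *GOT2*, encoding the mitochondrial aspartate aminotransferase, had 11.15 in miR-184 cells and 12.12 in NC cells (-0.97, 1.95 times lower). The list did not follow *SLC7A11* as a group, with a median of -0.01.

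Among 13 regulators of LAT1 and CD98, none was lower and 1 (7.69%) was higher. Of these 13 genes 11 had a signal at or above the median, where 7.77% of all genes were lower and 6.25% higher. *NEDD4L*, encoding a ubiquitin ligase that removes several membrane transporters from the surface, had 13.81 in miR-184 cells and 12.23 in NC cells (1.58, 2.99 times higher). The related ligase gene *NEDD4* had 9.89 in miR-184 cells and 9.37 in NC cells (0.52). *MYC*, which encodes a transcription factor known to drive *SLC7A5*, had 8.23 in miR-184 cells and 8.68 in NC cells (-0.46). The gene of its partner MAX had 5.91 in miR-184 cells and 6.49 in NC cells (-0.58, just outside the threshold). Other transcriptional regulators of the list were *HIF1A* (0.34), *YAP1* (0.26), *EPAS1* (0.22), *ATF4* (-0.01) and, below the median signal, *MYCN* (0.14). Of the 13 genes, 6 were below 0 and 7 above. The part of any of them in the *SLC7A5* difference was not tested.

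**Figure D4:**
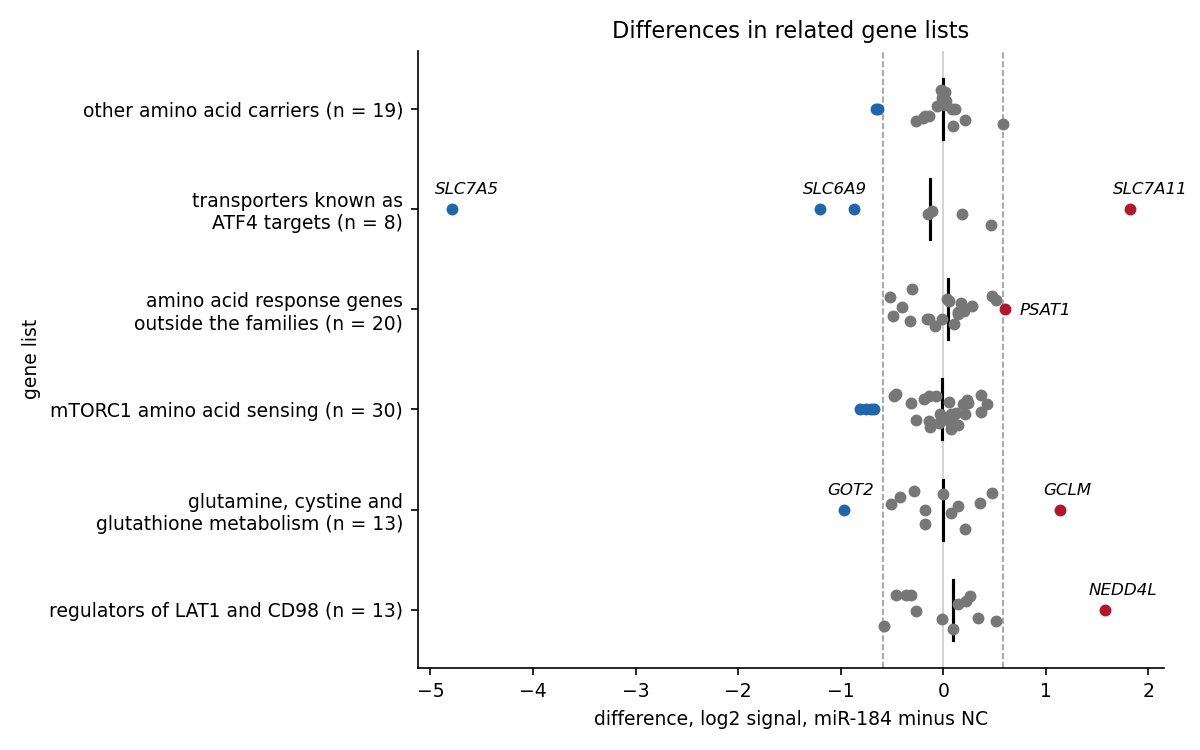
Difference of the log2 signal (miR-184 minus NC, horizontal axis) of each gene in 6 related lists (vertical axis, with the number of genes measured). Black bars are list medians, dashed lines mark 1.5 times, blue is lower and red higher. Each median is within 0.2 of 0, and the transporters known as ATF4 targets run from -4.79 to 1.82.

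The promoters of the members were searched for the letters that factors of these pathways are known to bind. RefSeq windows of 300 bases (GRCh38.p14), with 250 bases before and 50 after each start site, were given for 49 of the 64 genes and for 7 of the 9 past the threshold. *SLC7A11* and *SLC15A3* had no entry. The search covered both strands, and no match of 1 motif overlapped one of another in these genes. TGATGNAA, the element bound by ATF4, was in a window of 7 of 49 members (14.3%), against 4.46% of 27305 genes. CACGTG, the E-box that MYC binds, was in 10 of 49 (20.4%), against 8.77%. TGACNNNGC, the core of the antioxidant response element, was in 8 of 49 (16.3%), against 16.1%. Counting only the 250 upstream bases, the ATF4 element was left in 3 of 49 members (6.12%), against 3.89% of all genes. The E-box was in 9 (18.4%), against 7.73%, and the antioxidant core in 7 (14.3%), against 13.2%.

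Matches to the ATF4 element lay in the windows of *SLC1A3* and *SLC3A2*, which were lower, and of *SLC1A4*, *SLC1A5*, *SLC7A1*, *SLC38A1* and *SLC15A5*, which were not past the threshold. The 7 members past the threshold with a window were all lower. Of these, 1 held the E-box (*SLC7A5*) and 4 held the antioxidant core (*SLC1A3*, *SLC3A2*, *SLC7A5* and *SLC7A6*). Of all 27305 genes, 4.46% held the ATF4 element, 8.77% the E-box and 16.1% the antioxidant core. Within the 250 upstream bases, 1 of these 7 members held the ATF4 element, 1 the E-box and 3 the antioxidant core. A match is a run of letters and not a shown binding site. The windows of the LAT1 light chain and its heavy chain are printed because both genes were lower in miR-184 cells and by unequal amounts. *SLC7A5* is on chr16:87869458-87869757, minus strand, and *SLC3A2* on chr11:62881449-62881748, plus strand, the only one of its 3 windows with a match. Capitals mark the matches, and positions count from 1 at the start site, with -1 just before it. In *SLC7A5* they are the E-box at -130 and the antioxidant core TGACGCAGC at -2. In *SLC3A2* they are the antioxidant core TGACTCAGC at -37 and the ATF4 element at 38. That element lies on the opposite strand and appears in the printed strand as TTACATCA.
SLC7A5: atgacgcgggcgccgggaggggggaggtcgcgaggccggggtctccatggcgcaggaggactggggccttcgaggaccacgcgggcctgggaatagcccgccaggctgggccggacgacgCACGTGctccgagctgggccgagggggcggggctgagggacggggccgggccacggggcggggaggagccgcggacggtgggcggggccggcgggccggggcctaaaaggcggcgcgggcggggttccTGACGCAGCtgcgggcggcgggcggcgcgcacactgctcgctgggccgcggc
SLC3A2: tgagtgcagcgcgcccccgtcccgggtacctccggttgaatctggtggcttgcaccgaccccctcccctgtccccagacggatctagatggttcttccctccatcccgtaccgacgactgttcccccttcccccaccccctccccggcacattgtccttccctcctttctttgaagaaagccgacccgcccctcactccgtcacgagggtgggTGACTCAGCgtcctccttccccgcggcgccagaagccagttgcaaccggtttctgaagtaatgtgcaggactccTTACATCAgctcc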

How the data were processed

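RNA of SV40-immortalized HCECs was measured at 48 h, with 1 array for the miR-184 mimic (50 nM) and 1 for NC. The authors' methods describe the Affymetrix Human Transcriptome Array 2.0 and Expression Console for normalization. The feature identifiers are of that kind, although the labels describe Cy3 labelling, and Agilent Feature Extraction 9.1 is named in the submitters' processing notes. The deposited values are log2 signals with an upper limit of 19.93. They were used without further normalization or a filter, and the number of arrays limits the precision. The build behind the array's annotation was not found, so gene coordinates of the array are not printed.

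Of 65854 features, 23730 carried 1 symbol in the platform annotation, 1539 several and 40585 none, and only the first were named. Symbols were updated through RefSeq (GRCh38.p14, 303 changed). Where a gene had several features, the one brightest on average was taken. The members, lists and thresholds were chosen with earlier results of these data known. Named are all members past 1.5 times, all members whose mean signal reached the median, *SLC3A1* and *SLC3A2*, and up to 4 genes past 1.5 times of each list; other genes were named after their values had been seen. The list of lower predicted targets published with these arrays was used for its symbols only. No test across samples was possible. Alternatives were centring, quantile normalization, a loess correction for signal (span 0.3), the mean of all features, a threshold of 2 times, and use of the brighter genes alone (mean signal at the median or above). The counting at 1.5 times, the centring and the loess correction were tested on simulated differences, and the other steps were not. The counting and centring were tested at a smaller spread than these arrays showed. Python 3.11.15, numpy 2.4.6, pandas 2.3.3, statsmodels 0.14.6 and matplotlib 3.10.9 were used.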

Additional observations from a re-analysis of the deposited data

How the results depend on the processing

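Counts and medians were recomputed under each alternative. Centring on the median of all genes (0.04), quantile normalization and loess correction for signal left 8 or 9 transporter genes lower and 1 higher. No difference past the threshold changed its direction. The ninth gene was *SLC38A12* (-0.62 after centring). Averaging of features could not change these values, because each transporter gene had a single feature. The count of lower genes was 5 at a threshold of 2 times, and also 5 without *SLC7A5*, *SLC15A2* and *SLC6A9*, an omission chosen after seeing the data. These counts are smaller by construction. The median difference was -0.17 over the brighter genes alone (mean signal at the median or above), and the medians of 6 families moved by over 0.1 in the same setting. The difference of *SLC7A5* ran from -4.83 to -4.72 over the scalings and that of *SLC7A11* from 1.78 to 1.87. *PSAT1* was not past the threshold after centring, which left 0 amino acid response genes higher, against 2 after quantile normalization. *MAX* was past the threshold after centring, which made 1 regulator of LAT1 and CD98 lower, and 1 other amino acid carrier was higher after quantile normalization or loess correction. Quantile normalization made 2 regulators higher, against 1. At 2 times, the lower genes fell to 0 in other amino acid carriers (2 at 1.5 times), mTORC1 sensing (4) and glutathione metabolism (1), and no amino acid response gene was higher. No paired analysis was possible because each condition has 1 array. The arrays can miss a change at low signals, and no replicate shows how far any value would vary.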
